A study of Mus musculus with 7 samples.

Results

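The genes described here are the Nlrp4, Nlrp9 and Nlrp14 genes of the mouse oocyte, 10 genes chosen by name: Nlrp4a, Nlrp4b, Nlrp4c, Nlrp4e, Nlrp4f, Nlrp4g, Nlrp9a, Nlrp9b, Nlrp9c and Nlrp14. A gene was taken into the comparison where the oocyte table held a transcript with its name on its own strand, and 9 of the 10 had such a transcript among the 33437 transcripts of the table. As applied, the rule used the names and the strand alone, since each of the 9 genes had 1 such transcript. The genes themselves were chosen with earlier results of these data known. Transcription was measured by RNA-seq of single germinal vesicle (GV) oocytes, which are fully grown oocytes arrested before the first meiotic division, from 21-day-old females labelled C57BL6 (a C57BL/6OlaHsd background, by the study's methods). The 4 Setd1b cKO oocytes came from females with 2 floxed Setd1b alleles and Gdf9-Cre. Gdf9-Cre is a recombinase that removes the floxed segment in oocytes, by the study's methods from early follicle development onwards. The 3 Setd1b WT oocytes are labelled as from females with the same floxed alleles and no Gdf9-Cre; the study's methods also count as Setd1b WT females with Gdf9-Cre and 1 unfloxed allele, so a control of that kind cannot be told apart here. SETD1B is a methyltransferase that places trimethylation on lysine 4 of histone H3, a mark of active promoters, and the comparison asks how its loss during oocyte growth changes the transcripts of the fully grown GV oocyte.

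NLR proteins are intracellular proteins with a nucleotide-binding domain and leucine-rich repeats, and NLRP proteins carry a pyrin domain in front of these. Some, such as NLRP3, sense microbial or damage signals and assemble inflammasomes, which activate caspase-1. Others are found mainly in germ cells and are often called reproductive NLRPs; NLRP5 (MATER) is the best known, a protein of the subcortical maternal complex that the embryo needs for its first divisions. The Nlrp4 and Nlrp9 genes of rodents arose by repeated local duplication, whereas Nlrp14 is a single gene whose loss impairs fertility.

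A replicate is 1 oocyte. Whether oocytes of a genotype came from the same female is not given in the labels, so p-values measure the spread between these oocytes only. The libraries held between 8582493 and 12972366 mapped reads, and 1 read corresponded to 0.0771 to 0.117 reads per 1000000 mapped reads (RPM). RPM is a share of a library, so a lower share of total RNA and a lower amount per oocyte cannot be told apart. The Setd1b cKO libraries had 13.2% to 16.4% of their reads outside the transcripts of the table and the Setd1b WT libraries 9.57% to 9.90%, and the part of this in the results was not tested. All 14 oocyte markers were present, with a summed level of 26135 to 27688 RPM in Setd1b cKO and 32778 to 34225 RPM in Setd1b WT. Granulosa cell markers summed to 116 to 159 RPM in Setd1b cKO and 99.3 to 154 RPM in Setd1b WT. Of the 17 with a transcript 1, Krt18, was at 0 in every library. Amh and Foxl2 were at 0 in Setd1b WT and at 0.0435 ± 0.0871 and 0.0412 ± 0.0824 RPM in Setd1b cKO. Hsd3b1 had a higher mean in Setd1b cKO, 3.14 ± 3.51 against 0.389 ± 0.425 RPM, as had Hsd17b1, 1.10 ± 0.966 against 0.224 ± 0.245 RPM. Cyp11a1 had a lower one, 0.368 ± 0.325 against 0.739 ± 0.350 RPM. Of the 8 expressed enough to test, 6 had an estimate above 0 and 2 below. Blood and immune markers summed to 4.61 to 13.05 RPM in Setd1b cKO and 2.16 to 3.74 RPM in Setd1b WT, with Hbb-bs, Hba-a1 and Lyz2 at 0. No transcript of the table carries the name Setd1b. The transcript that covers this gene on its strand (chr5:123142193-123168620, GRCm38), listed under the name of an overlapping gene, was at 8.31, 16.7, 12.8 and 2.68 RPM in Setd1b cKO and at 17.7, 16.3 and 8.61 RPM in Setd1b WT. These values overlapped, and a level over the whole gene does not read the floxed segment alone, so it does not check the genotype labels.

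Of the 9 genes, 8 lie on chromosome 7 and Nlrp4f lies on chromosome 13. All 9 are annotated as protein coding, with 863 to 1004 codons. They belong to related copies: the coding sequences of the 5 Nlrp4 genes were 78.4% to 93.9% identical in pairs, those of the 3 Nlrp9 genes 83.2% to 87.7%, and pairs from different families 60.9% to 63.7%. Nlrp4c and Nlrp4e were the closest pair, at 93.9%. Because reads were 75 bases long, the share of each transcript's 75-base windows that also occur in another annotated gene was counted. This share was 20.2% for Nlrp4e, 3.42% or less for each of the other 8 genes, and 0% for Nlrp4b and Nlrp14. Reads from the shared windows of Nlrp4e cannot be assigned to it with certainty, and its level is uncertain. The authors removed alignments with a mapping quality under 20, so such reads may be missing from its level, which was not tested. Only exact matches were counted, so windows that are nearly alike in another gene are not part of these shares.

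The sequence upstream of the start is shown for 3 of the genes, because it separates near copies from diverged ones and gives a view of their CpG content, a property that H3K4 methylation often follows. The sequences are from RefSeq (GRCm38.p6), read 5′ to 3′ on the strand of the gene, and stop where the transcript of the table begins. Capitals mark CCAAT or its reverse complement ATTGG. Nlrp9a and Nlrp9c are shown as a near-identical pair and Nlrp4c as the gene with the most CpG among those with a RefSeq promoter entry, which Nlrp14 lacks.
Nlrp9a, chr7:26534773-26535021, + strand: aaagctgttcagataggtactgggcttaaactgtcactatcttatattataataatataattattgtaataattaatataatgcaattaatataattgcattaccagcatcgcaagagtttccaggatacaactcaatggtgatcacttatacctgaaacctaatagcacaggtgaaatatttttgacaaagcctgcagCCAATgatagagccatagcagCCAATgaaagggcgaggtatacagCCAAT
Nlrp9c, chr7:26403773-26403950, - strand: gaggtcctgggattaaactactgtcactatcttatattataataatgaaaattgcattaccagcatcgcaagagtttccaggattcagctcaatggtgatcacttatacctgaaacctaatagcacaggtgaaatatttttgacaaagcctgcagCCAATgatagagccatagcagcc
Nlrp4c, chr7:6044911-6045160, + strand: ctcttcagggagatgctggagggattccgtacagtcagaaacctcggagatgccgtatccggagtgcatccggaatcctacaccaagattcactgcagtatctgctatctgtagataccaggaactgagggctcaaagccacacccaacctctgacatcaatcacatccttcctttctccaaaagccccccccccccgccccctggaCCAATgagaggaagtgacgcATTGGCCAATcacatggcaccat

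A promoter entry in the RefSeq table was matched for 8 of the 9 genes, and the 250 bases before the RefSeq start were compared with those of all 32851 promoters. Nlrp9a and Nlrp9c were identical at 195 of 202 aligned bases (96.5%), and Nlrp4b and Nlrp4c at 164 of 207 (79.2%). The alignments of all other pairs spanned 68 bases or fewer. The Nlrp9a sequence has an AT-rich stretch near its left end that Nlrp9c lacks. Cores of homeodomain binding sites were searched on both strands, overlaps included, as TAATTA (the TA form) and TAATTG (the TG form), which share their first 5 letters. Each occurred 2 times upstream of Nlrp9a, within that stretch. The TG form also occurred 1 time upstream of Nlrp9b, and neither occurred upstream of the other 6 genes. Over all promoters, 4.84% held the TA form and 7.17% the TG form. CCAAT, on either strand, occurred 3 times in each of Nlrp4c, Nlrp9a and Nlrp9c, 2 times in Nlrp4b and 1 time in Nlrp4e, and was not found in the windows of Nlrp4a, Nlrp4f and Nlrp9b; 33.8% of all promoters held it at least 1 time and 10.1% at least 2 times. The 250-base windows of Nlrp4a, Nlrp4b, Nlrp4c, Nlrp4e, Nlrp4f, Nlrp9a, Nlrp9b and Nlrp9c held 4, 0, 7, 0, 2, 2, 2 and 2 CpG, against a median of 6 over all promoters. The E-box CANNTG, in 66.2% of all promoters, was found in 7 of the 8 windows, the exception being Nlrp4e, and TATAAA, in 12.4% of all promoters, was found in Nlrp9b. The table's transcript began 453 bases before the RefSeq start in Nlrp4e, 253 in Nlrp4f and 4035 in Nlrp9b, so that the upstream windows of these 3 genes lie inside the transcript and none is printed. It began 204 bases before the RefSeq start in Nlrp4b and 72 in Nlrp9c, so that these windows lie in part inside it, and the printed part of Nlrp9c holds 1 of its 3 CCAAT. These matches describe letters in a window and were not tested as binding sites.

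In Setd1b WT oocytes the genes covered a wide range of levels. Per kilobase of annotated exon within the transcript of the table, Nlrp14 stood highest, at 690 ± 271 RPM per kb (SD, n = 3), followed by Nlrp9c at 191 ± 26.3, Nlrp4f at 174 ± 14.9, Nlrp9a at 126 ± 57.5 and Nlrp9b at 111 ± 35.9 RPM per kb. Nlrp4a and Nlrp4b stood at 70.7 ± 9.69 and 64.9 ± 19.0 RPM per kb, Nlrp4e at 12.6 ± 3.11 and Nlrp4c at 3.90 ± 1.13 RPM per kb. In this order the values of neighbouring genes in single oocytes overlapped except at 3 places, between Nlrp14 and Nlrp9c, between Nlrp4b and Nlrp4e, and between Nlrp4e and Nlrp4c. The relation of Nlrp9c to Nlrp4f depends on the length used, since the exons of all annotated Nlrp9c isoforms within the transcript cover 5832 bases and a single transcript of the annotation 3216 bases. Per kilobase of single transcript, Nlrp9c stood at 347 ± 47.6 and Nlrp4f at 189 ± 16.2 RPM per kb, without overlap. On that scale Nlrp4b, at 87.6 ± 25.6, stood above Nlrp4a, at 80.3 ± 11.01 RPM per kb, and these 2 genes overlapped on both scales. By unscaled RPM, Nlrp14 ranked 32 of all transcripts by its mean in Setd1b WT, Nlrp9c ranked 87 and Nlrp4f ranked 151. The 9 genes together took 5720 ± 1610 RPM (n = 3), or 0.572% of the mapped reads. In no library did a gene rest on fewer than 63 reads, a count from Nlrp4c, and the other 8 genes had at least 177 reads in every library.

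**Figure D1:**
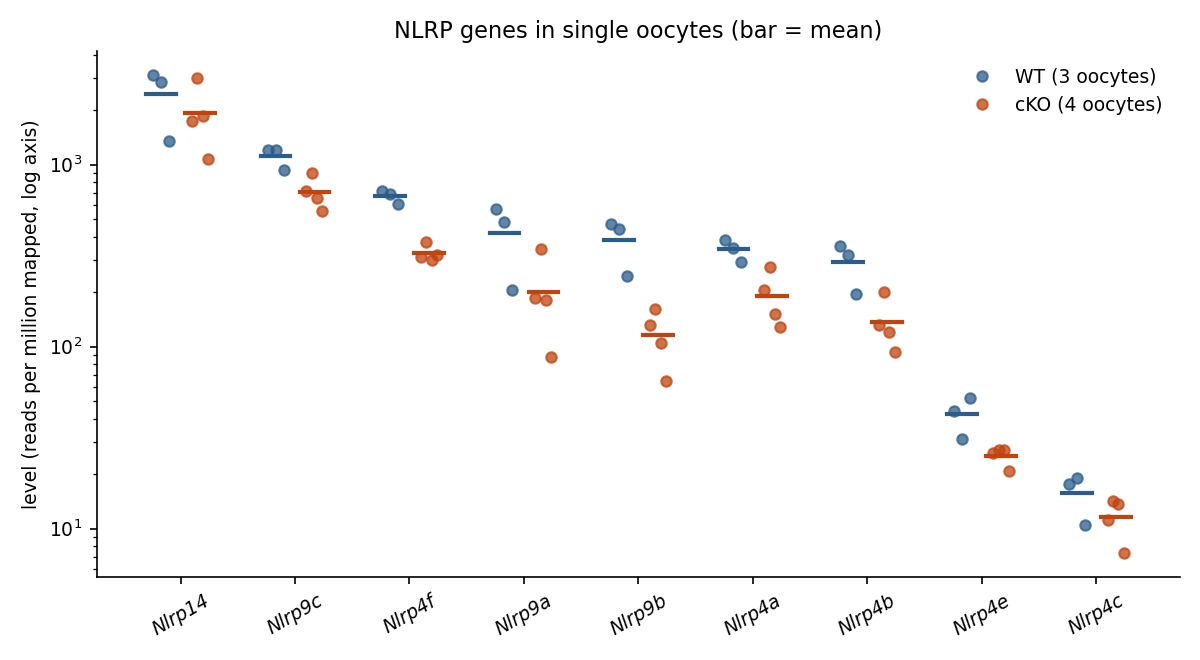
Level of the 9 NLRP genes in each oocyte, in RPM on a log axis; points are single oocytes (blue, 3 Setd1b WT; orange, 4 Setd1b cKO) and bars are group means. The mean was lower in Setd1b cKO for each gene, and the groups did not overlap for Nlrp4a, Nlrp4e, Nlrp4f, Nlrp9b and Nlrp9c.

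Loss of SETD1B was accompanied by lower levels of Nlrp9b and Nlrp4f, the 2 of the 9 genes that passed the test. Nlrp9b fell from 387 ± 126 RPM (n = 3) to 116 ± 41.0 RPM (n = 4), and Nlrp4f from 671 ± 57.6 to 327 ± 34.6 RPM. The estimate was below 0 for all 9 genes, with a median log2 difference of -0.90. Over the 18179 transcripts tested the median was 0.12, and 39.7% had an estimate below 0. Of 14 oocyte markers 12 were below 0 as well, with a median of -0.44. Most of the 9 genes rose and fell together between oocytes of a genotype, so they are not 9 separate observations. The comparison was made in limma on log2(RPM + 1) across all transcripts tested, and a call required more than a 2-fold change with a p under 0.05 after Benjamini-Hochberg adjustment. By this rule 2 of the 9 genes were lower, where 1.95% of all transcripts were, and 0 of 9 were higher, where 3.76% of all transcripts were. At an unadjusted p under 0.05, 7 of the 9 were lower and 0 higher, by limma and by voom alike, where limma gave 7.52% of all transcripts lower and 14.2% higher. In 5 of the 9 genes every Setd1b cKO oocyte lay below every Setd1b WT oocyte, as it did in 7.14% of all transcripts.

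Nlrp9b is also known outside the germ line, where its protein takes part in the response of intestinal epithelium to rotavirus. In the oocytes it was at 132, 161, 105 and 65.0 RPM in Setd1b cKO and at 474, 445 and 243 RPM in Setd1b WT. The highest Setd1b cKO oocyte, replicate 2, lay below the lowest Setd1b WT oocyte, replicate 3. The log2 difference was -1.75 ± 0.34 (SE, limma adjusted p = 0.0145), with a 95% interval from -2.50 to -1.01, which leaves 29.9% of the Setd1b WT mean. The call was lost without Setd1b cKO replicate 3 (limma adjusted p = 0.0507), without Setd1b WT replicate 1 (0.0701) and without Setd1b WT replicate 2 (0.0807), and with no filter on low values (0.116), while the difference stayed between -2.06 and -1.50 over all 20 alternatives. The annotated gene is at chr7:19991465-20073306, on the + strand. The transcript of the table (chr7:20003988-20290143) reached 216837 bases past it, and whether reads from outside the gene were counted with it was not tested.

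Nlrp4f, at chr13:65177111-65205977 on the - strand, encodes a protein found with the subcortical maternal complex in oocytes. It was at 312, 377, 300 and 318 RPM in Setd1b cKO and at 718, 687 and 607 RPM in Setd1b WT. It had the tightest groups of the 9 genes: the highest oocyte was 1.26 times the lowest in Setd1b cKO and 1.18 times in Setd1b WT. Its log2 difference was -1.04 ± 0.20 (SE, limma adjusted p = 0.0139), with a 95% interval from -1.47 to -0.60, so the estimate lay close to the 2-fold limit. The adjusted p rose to 0.0528 without Setd1b cKO replicate 3, to 0.0736 without Setd1b WT replicate 1 and to 0.0751 without Setd1b WT replicate 2. Under quantile normalisation and under scaling to the reads within transcripts the difference was -0.92 and -0.96, and without Setd1b cKO replicate 3 and without Setd1b WT replicate 1 it was -0.997 and -0.986, each short of 2-fold. A short transcript on the opposite strand within it was at 1.97 ± 0.33 RPM in Setd1b cKO and 3.15 ± 0.71 RPM in Setd1b WT; the cDNA kit does not mark strand, so reads of the 2 strands cannot be told apart where they overlap.

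**Figure D2:**
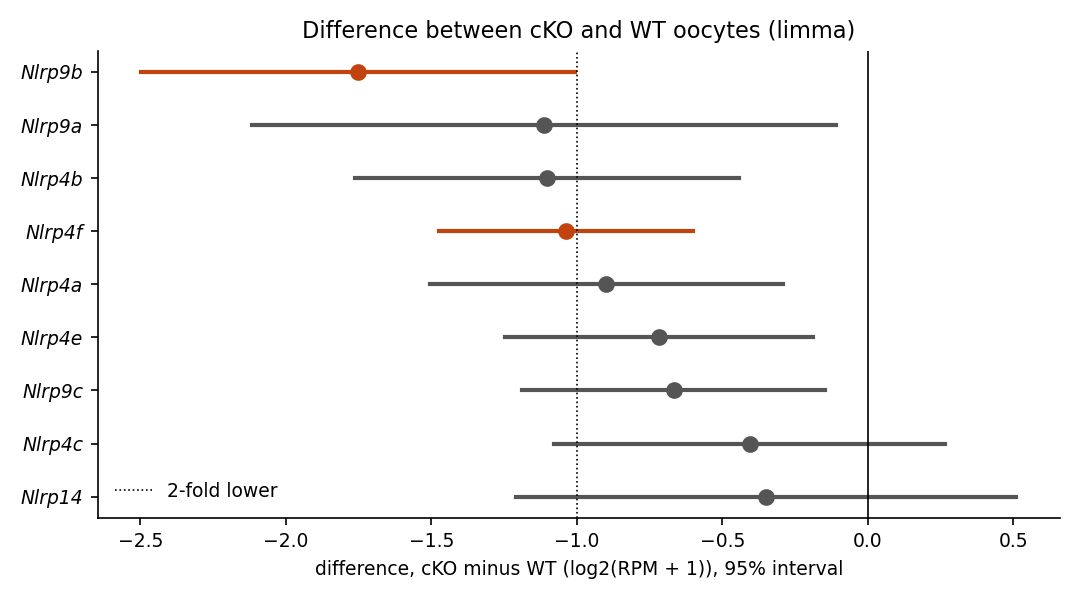
Difference in log2(RPM + 1) between 4 Setd1b cKO and 3 Setd1b WT oocytes for the 9 NLRP genes; points are limma estimates and lines their 95% intervals, in orange for the 2 genes called lower. The estimates run from -1.75 for Nlrp9b to -0.35 for Nlrp14, and the intervals of Nlrp4c and Nlrp14 include 0.

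Nlrp9a and Nlrp9c lie close together on chromosome 7, on opposite strands and with Nlrp4a between them. Nlrp9a (chr7:26535023-26575615, + strand) was at 186, 343, 179 and 87.4 RPM in Setd1b cKO and at 574, 485 and 206 RPM in Setd1b WT. It had the widest spread of the 9 genes, 3.93 times between the highest and lowest Setd1b cKO oocytes and 2.79 times in Setd1b WT, and the groups overlapped. The log2 difference, -1.11 ± 0.45, was as large as that of Nlrp4f but did not pass (SE, limma adjusted p = 0.182), with a 95% interval from -2.12 to -0.11. Nlrp9c (chr7:26322473-26403700, - strand) was at 717, 904, 657 and 556 RPM in Setd1b cKO and at 1211, 1197 and 939 RPM in Setd1b WT. Here the groups did not overlap, although the highest Setd1b cKO oocyte and the lowest Setd1b WT oocyte lay close together, and the log2 difference of -0.67 ± 0.24 did not pass (SE, limma adjusted p = 0.125).

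The relation among the 3 Nlrp9 genes can be read within a library, where scaling has no part. Nlrp9b stood at 18.4%, 17.8%, 15.9% and 11.7% of Nlrp9c in the Setd1b cKO oocytes and at 39.1%, 37.2% and 25.9% in the Setd1b WT oocytes. These ratios did not overlap, with means of 16.0% ± 3.04 (n = 4) and 34.1% ± 7.14 (n = 3). The exact permutation test (two-sided, on the log ratio) gave p = 0.0571, which is the smallest p that 4 against 3 oocytes allow, and 0.343 after Benjamini-Hochberg adjustment over the 6 ratios compared. Nlrp9a stood at 26.7% ± 9.11 of Nlrp9c in Setd1b cKO (n = 4) and 36.6% ± 13.2 in Setd1b WT (n = 3), with overlap (exact permutation p = 0.343, adjusted 0.514). As a share of the Nlrp9 sum, Nlrp9c made up 70.4% ± 5.94 in Setd1b cKO and 59.2% ± 7.46 in Setd1b WT, with overlap between single oocytes.

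Among the Nlrp4 genes, Nlrp4a and Nlrp4b had estimates near those of Nlrp4f but wider spread. Nlrp4a (chr7:26435113-26476142, + strand) was at 205, 275, 152 and 128 RPM in Setd1b cKO and at 385, 349 and 292 RPM in Setd1b WT, without overlap. Its log2 difference was -0.90 ± 0.27 (SE, limma adjusted p = 0.0825). The transcript of the table ran 22480 bases past the annotated gene. Nlrp4b (chr7:10687789-10730168, + strand) was at 131, 200, 120 and 93.2 RPM in Setd1b cKO and at 358, 321 and 195 RPM in Setd1b WT. Only Setd1b cKO replicate 2 lay above a Setd1b WT oocyte, replicate 3, and the log2 difference was -1.10 ± 0.30 (SE, limma adjusted p = 0.0557). Nlrp4b passed the rule in 4 of the 20 alternatives tried and Nlrp4a in 2.

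Nlrp4e and Nlrp4c, the closest pair in coding sequence, were the least expressed. Nlrp4e (chr7:23301192-23362277, + strand) was at 25.9, 26.9, 27.0 and 20.6 RPM in Setd1b cKO and at 44.5, 31.2 and 52.0 RPM in Setd1b WT. The groups did not overlap, and the log2 difference of -0.72 ± 0.24 did not pass (SE, limma adjusted p = 0.107). Nlrp4c (chr7:6045161-6105150, + strand) was at 11.1, 14.2, 13.6 and 7.34 RPM in Setd1b cKO and at 17.6, 18.9 and 10.5 RPM in Setd1b WT. The groups overlapped and the log2 difference was -0.41 (limma adjusted p = 0.498), with a 95% interval from -1.08 to 0.27 that holds both no change and a 2-fold fall. The estimate was -0.22 without Setd1b cKO replicate 4, -0.26 without Setd1b WT replicate 2 and -0.65 without Setd1b WT replicate 3. Relative to Nlrp4f within each library, none of Nlrp4a, Nlrp4b, Nlrp4c and Nlrp4e gave ratios that separated the genotypes (exact permutation p from 0.171 to 0.8, two-sided, n = 4 and 3). For example, Nlrp4b stood at 41.0% ± 9.64 of Nlrp4f in Setd1b cKO and 42.9% ± 9.40 in Setd1b WT.

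Nlrp4g had no transcript under its name and is annotated as a transcribed unprocessed pseudogene, at chr9:124348872-124356970 on the + strand. A transcript named Gm47180 (chr9:124338214-124358673, + strand) covers it, and it was not counted among the 9 genes. It was at 194, 235, 181 and 123 RPM in Setd1b cKO and at 326, 350 and 217 RPM in Setd1b WT. The highest Setd1b cKO oocyte lay above the lowest Setd1b WT oocyte, and the log2 difference was -0.71 (limma adjusted p = 0.153).

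Nlrp14, at chr7:107166990-107198102 on the + strand, lies apart from the other genes of chromosome 7, and its protein has been tied to UHRF1, a DNA methylation factor, and to calcium handling at fertilisation. It was at 1728, 2990, 1861 and 1069 RPM in Setd1b cKO and at 3125, 2831 and 1343 RPM in Setd1b WT. The 2 groups shared most of their range. The log2 difference was -0.35 ± 0.39 (SE, limma adjusted p = 0.673), and its 95% interval from -1.21 to 0.51 does not exclude a 2-fold fall. The estimate was -0.10 without Setd1b cKO replicate 4, -0.12 without Setd1b WT replicate 1, -0.19 without Setd1b WT replicate 2, -0.60 without Setd1b cKO replicate 2 and -0.73 without Setd1b WT replicate 3, and -0.04 under quantile normalisation. Nlrp14 made up 51.7% ± 4.86 of the summed level of the 9 genes in Setd1b cKO (n = 4) and 41.4% ± 5.97 in Setd1b WT (n = 3).

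The summed level of the 9 genes was 3448, 5292, 3414 and 2344 RPM in Setd1b cKO and 6908, 6365 and 3888 RPM in Setd1b WT. The mean of 3624 ± 1224 RPM (n = 4) in Setd1b cKO was 63.4% of the 5720 RPM in Setd1b WT, and Setd1b cKO replicate 2 exceeded Setd1b WT replicate 3. Since Nlrp14 is the largest part of both sums, the families were also summed alone. The 5 Nlrp4 genes summed to 689 ± 144 RPM in Setd1b cKO and 1362 ± 187 RPM in Setd1b WT, and the 3 Nlrp9 genes to 1023 ± 291 and 1925 ± 469 RPM. The Nlrp4 sums did not overlap between the genotypes, whereas the Nlrp9 sum was 1409 RPM in Setd1b cKO replicate 2 and 1388 RPM in Setd1b WT replicate 3.

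**Figure D3:**
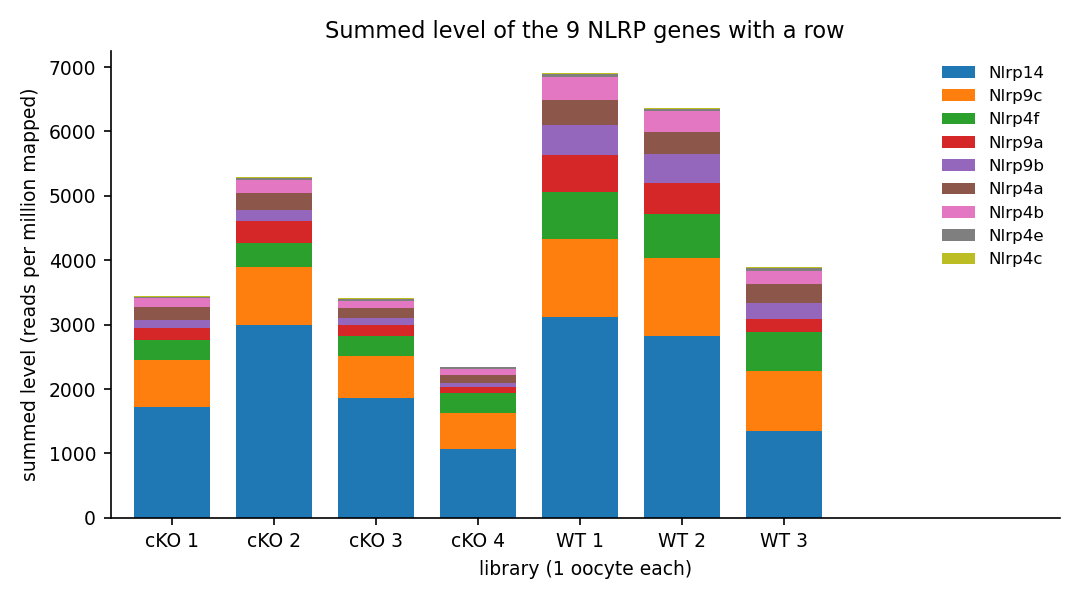
Summed level of the 9 NLRP genes in each of the 7 oocytes, in RPM, stacked by gene. Nlrp14 is the largest part of every bar, and the sum runs from 2344 in Setd1b cKO replicate 4 to 6908 in Setd1b WT replicate 1.

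Within each genotype the same oocytes were low or high in most of the 9 genes. Setd1b cKO replicate 4 was the lowest Setd1b cKO oocyte in 8 of the 9 genes, against 37.4% of all transcripts tested, and replicate 2 was the highest in 8 of 9, against 29.4%. In Setd1b WT, replicate 3 was the lowest in 8 of 9 genes, against 40.4%, and replicate 1 the highest in 7 of 9, against 36.8%. The exceptions at the low end were Nlrp4f, lowest in Setd1b cKO replicate 3, and Nlrp4e, lowest in Setd1b WT replicate 2. These libraries also had low levels of some other oocyte transcripts: Zp2, a zona pellucida gene, was at 751 RPM in Setd1b cKO replicate 4 and 1033 RPM in Setd1b WT replicate 3, and at 2307 to 3201 RPM in the other 5 libraries. They were not low in all, since Dppa3, an oocyte and early embryo factor, had its highest values there, 10654 and 10362 RPM. Their mapped reads, 8582493 and 10688295, were the fewest of their groups, and what part this has in the pattern was not tested. Without Setd1b cKO replicate 4, Nlrp9b and Nlrp4f were called lower as before. Without Setd1b WT replicate 3, Nlrp4b was called as well.

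**Figure D4:**
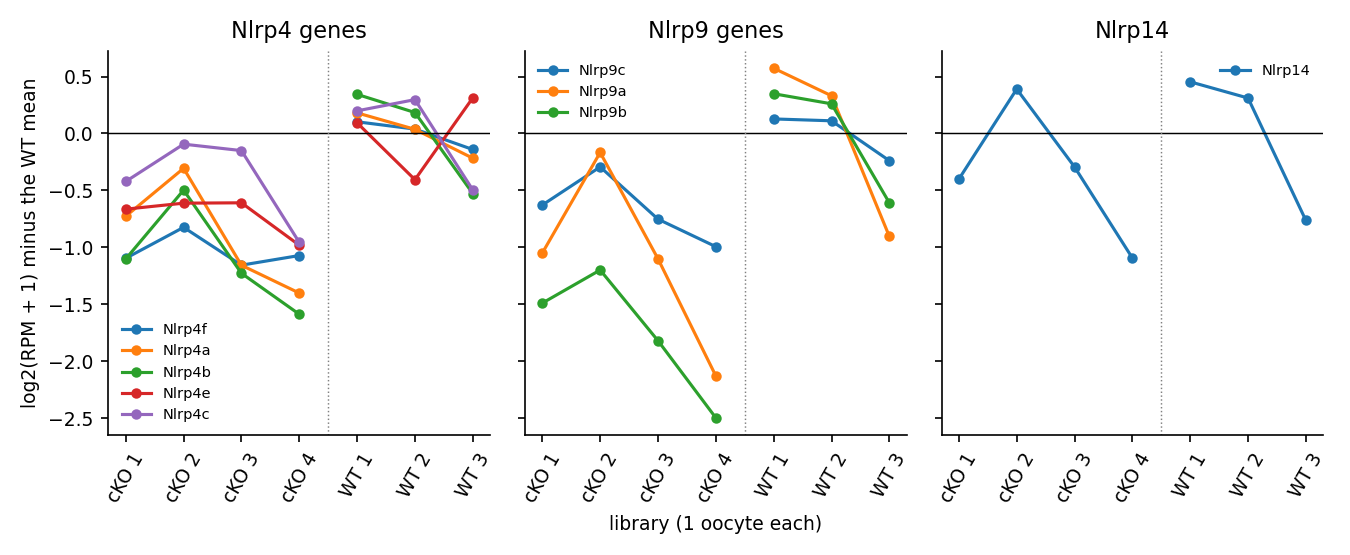
Level of each NLRP gene in each oocyte as log2(RPM + 1) minus the gene's mean over the 3 Setd1b WT oocytes; lines join the values of 1 gene and the order of oocytes has no meaning. Setd1b cKO replicate 4 and Setd1b WT replicate 3 lie low in most genes, and Nlrp4f varied little within each genotype.

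The other NLR genes were compared from a list of 21, of which 14 had a transcript on their strand and 6 were expressed enough to test. None of these was lower by the rule, with 1 at an unadjusted p under 0.05, and 1 was higher. Over all transcripts tested the rule called 1.95% lower and 3.76% higher. By voom 1 of the 6 was lower and 1 higher. Their median log2 difference was -0.26, and 5 of the 6 were below 0, against 39.7% of all transcripts tested. Nlrc3, an NLR protein described as a negative regulator of immune signalling, was at 105, 109, 113 and 170 RPM in Setd1b cKO and at 42.6, 28.2 and 48.0 RPM in Setd1b WT. The groups lay far apart, and the log2 difference was 1.63 (limma adjusted p = 0.00652). Nlrc4, which forms an inflammasome for bacterial flagellin, was at 23.2 ± 3.23 RPM in Setd1b cKO and 46.8 ± 6.73 RPM in Setd1b WT, a log2 difference of -0.98 (limma adjusted p = 0.0256) just short of 2-fold, and voom called it lower. The germ-cell gene Nlrp5 was at 978 ± 288 RPM in Setd1b cKO and 1058 ± 239 RPM in Setd1b WT (log2 difference -0.14, limma adjusted p = 0.834), and Nlrp2 was at 132 ± 36.5 and 174 ± 37.3 RPM (-0.40, limma adjusted p = 0.413).

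Of 7 genes of the subcortical maternal complex, 5 were tested and 0 were called in either direction by limma or by voom, or at an unadjusted p under 0.05. Their median log2 difference was 0.01, and besides Nlrp5 and Nlrp2 they included Padi6, a protein of the cytoplasmic lattices, at 1642 ± 558 RPM in Setd1b cKO and 1637 ± 639 RPM in Setd1b WT. Of 8 inflammasome genes, 4 had a transcript on their strand, and Pycard, the adaptor of the complex, was at 0 in every library. Of the 2 tested, 0 were called by either tool, and 1, Il18, was higher at an unadjusted p under 0.05 in limma and none in voom. Of 5 genes tied to the NLRP14 or NLRP4 proteins, 2 were tested and 0 were called by either tool or at an unadjusted p under 0.05: Uhrf1 at 375 ± 93.3 and 461 ± 47.9 RPM, and Tbk1, a kinase of the interferon pathway, at 10.3 ± 3.91 and 11.1 ± 4.27 RPM in Setd1b cKO and Setd1b WT. Among the 14 oocyte markers Mos, the kinase that holds the egg in the second meiotic division, was lower (log2 difference -1.34, limma adjusted p = 0.00581) and the median was -0.44. Of these markers 12 of 14 had an estimate below 0, 3 were lower and 0 higher at an unadjusted p under 0.05, by limma and by voom alike, and 3 were lower without overlap. Of the granulosa and cumulus cell markers 8 were tested and 0 were called by limma or by voom, with 1 higher at an unadjusted p under 0.05 in limma and none in voom. Of these 8, 6 had an estimate above 0, with a median of 0.27. The marker with the unadjusted p under 0.05 was Inha, a subunit of inhibin, at 8.07 ± 5.63 RPM in Setd1b cKO and 1.71 ± 2.29 RPM in Setd1b WT (log2 difference 1.70, limma adjusted p = 0.225), and its part in the results on the 9 genes was not tested. Without Setd1b cKO replicate 4, where Inha was at 0.583 RPM, and with the replicate block, Inha was called higher. Of the blood and immune markers 1 was tested, the macrophage gene Cd68, at 8.91 ± 3.44 RPM in Setd1b cKO and 2.72 ± 0.885 RPM in Setd1b WT (log2 difference 1.36, limma adjusted p = 0.0435); it passed the rule in 9 of the 20 alternatives, and voom did not call it.

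The genes around the NLRP genes were examined to see whether the lower estimates extended to their neighbours. Of 67 transcripts starting within 250 kb of one of the 9 genes, 37 were tested. Their median log2 difference was 0.09, and 16 (43.2%) were below 0, against 39.7% of all transcripts tested. The 37 include opposite-strand transcripts that overlap those of Nlrp9c and Nlrp4f, and reads of the 2 strands cannot be told apart there. Without these, 35 were tested, with 14 below 0 and a median of 0.15. The rule called 1 of them lower and 3 higher, and voom 1 and 2. The 3 higher calls fell to 0 without Setd1b cKO replicate 2 and without Setd1b cKO replicate 3. They also fell to 0 without Setd1b WT replicate 2 and with no filter on low values. Only 1 was called higher without Setd1b WT replicate 3, and 1 with 5 RPM in place of 1 RPM added before the log. The lower call was lost without Setd1b WT replicate 1. Lower calls numbered 2 without Setd1b cKO replicate 4 and with library quality weights, and 3 with the replicate block. The lower one, Ceacam20, a cell adhesion gene, lies just before Nlrp9b on the same strand. It was at 39.0 ± 3.39 RPM in Setd1b cKO and 90.9 ± 20.1 RPM in Setd1b WT, a log2 difference of -1.18 (limma adjusted p = 0.0132), and its transcript (chr7:19965412-19991946) ended 12042 bases before that of Nlrp9b and just inside the annotated Nlrp9b gene. The 3 higher ones were Gm7203 (1.76) and Zscan4b (1.85), 87.5 and 171 kb from Nlrp4b, and Gm47263 (1.44), 127 kb from Nlrp4f. Their limma adjusted p was 0.0328, 0.0488 and 0.0222, and they passed the rule in 14, 6 and 14 of the 20 alternatives. The Zscan4b transcript lies within that of Gm7203 on the opposite strand, so reads of these 2 cannot be told apart where they overlap. Nlrp5, with a log2 difference of -0.14, lies 23147 bases from the Nlrp4e transcript.

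**Figure D5:**
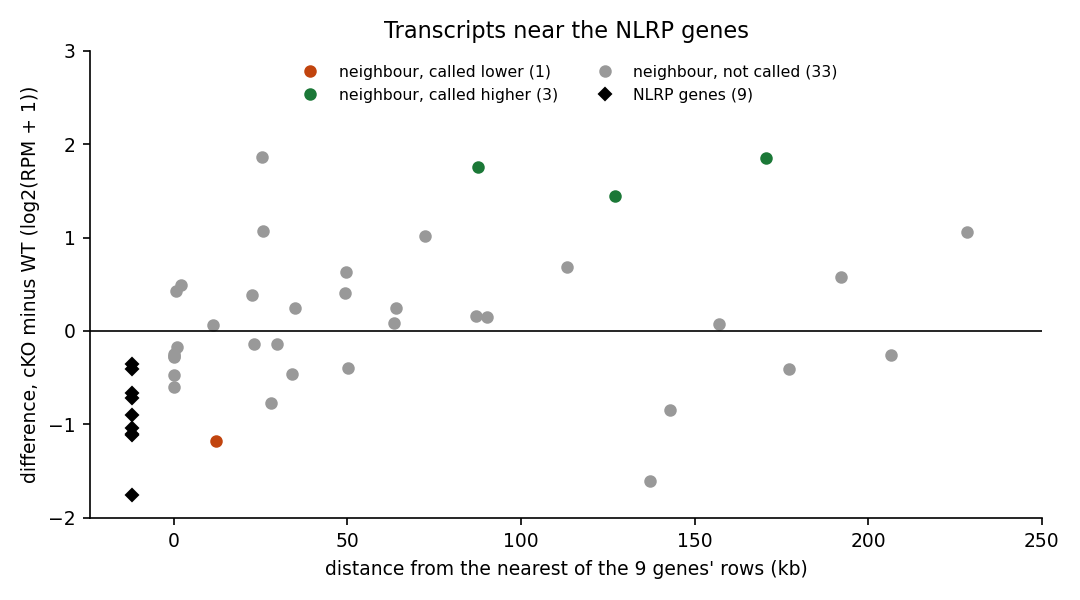
Difference in log2(RPM + 1) between Setd1b cKO and Setd1b WT for the 37 tested transcripts within 250 kb, against their distance in kb from the nearest transcript of the 9 NLRP genes, which are drawn as diamonds left of 0. Neighbours lie on both sides of 0, and the 1 neighbour called lower, at 12.0 kb, is Ceacam20.

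The transcripts most like the 9 genes over the 7 oocytes were found by the root mean square difference between centred log2(RPM + 1) profiles, among 6779 named transcripts with a mean of at least 8 RPM. The 5 closest were Slc44a2, a choline transporter (0.113), Ppef1, a phosphatase (0.118), Bmp5, a secreted growth factor (0.118), Gm47180, the transcript over Nlrp4g (0.124), and Kpna3, a nuclear import receptor (0.124). The profile holds the difference between genotypes, so a lower level in Setd1b cKO is part of how they were found: Bmp5, for example, was at 53.7 ± 11.8 RPM in Setd1b cKO and 115 ± 27.5 RPM in Setd1b WT.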

How the data were processed

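Single GV oocytes were reverse transcribed and amplified with the SMARTer Ultra Low RNA kit, which does not mark strand, and libraries were sequenced as 75 bp single reads. As the study's methods describe, the authors trimmed the reads, mapped them to GRCm38 with Hisat, removed alignments with a mapping quality under 20, and counted reads in SeqMonk over oocyte transcripts with merged isoforms; 1 more Setd1b WT library failed. The submitters' processing notes name bcl2fastq 1.8.4 and featureCounts 1.4.4. The deposited values are log2 RPM, which the authors scaled to the mapped reads of each library. In every library 100% of the values were whole reads within 0.02 of a read, with 0 reads listed at 0.9 of a read.

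The log2 values were turned into RPM and compared in limma 3.58.1 (R 4.3.3) on log2(RPM + 1), with an intensity trend, 4 Setd1b cKO against 3 Setd1b WT libraries, over the 18179 transcripts that reached 1 RPM in 3 or more libraries. Calls needed a Benjamini-Hochberg adjusted p under 0.05 over all of them and a change over 2-fold. voom in limma on the recovered reads was an alternative. All 10 genes are named, and from each other list the genes past the threshold and at most 3 of the highest mean; neighbours and similar profiles followed the rules given with them. The genes and lists were chosen with earlier results of these data known. The CCAAT motif, the ratios within families, the Setd1b level, Nlrc4, Zp2, Dppa3 and the marker examples were added after values or sequences had been seen. Exon lengths and positions are from GENCODE M21, and upstream sequences from RefSeq. Python 3.11.15 with pandas 2.3.3, scipy 1.17.1, biopython 1.88 and matplotlib 3.10.9 was used.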

Additional observations from a re-analysis of the deposited data

Results flagged for a closer look

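Within the 4 Setd1b cKO oocytes, 1 oocyte stood far from the other 3 in 3 of 32 values examined, where chance alone gives about 1.6; groups of 3 were not examined. The gap of the outlying oocyte to its nearest neighbour, divided by the range of the group, was 0.8333 for Nlrp4e, just past the limit used, with Setd1b cKO replicate 4 at 20.6 RPM and the others at 25.9 to 27.0 RPM. It was 0.8734 for Nlrc3, with replicate 4 at 170 RPM and the others at 105 to 113 RPM. It was 1 for Gsdmd, the pore-forming protein cut by inflammatory caspases, where replicate 3 had 1 read (0.0871 RPM) and the others none.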

How the results depend on the processing

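Direction did not change for any of the 9 genes under any of the 20 alternatives. The count of genes called lower, 2 as reported (Nlrp9b and Nlrp4f), was 1 with no filter (Nlrp4f), 1 with quantile normalisation and 1 with scaling to the reads within transcripts (Nlrp9b in both), 4 after centring on the median gene (Nlrp4a and Nlrp4b added), 4 with library quality weights (Nlrp4b and Nlrp9a added), and 0 at an adjusted p under 0.01, where 7 genes had an unadjusted p under 0.05. Over all transcripts 355 were called lower as reported, 129 with no filter, 442 with quantile normalisation and 310 with scaling to the reads within transcripts. That number was 531 after centring, 554 with library quality weights and 110 at an adjusted p under 0.01. Leaving out 1 library gave 0 to 4 of the 9 genes: 0 without Setd1b cKO replicate 3, Setd1b WT replicate 1 or Setd1b WT replicate 2, and 4 without Setd1b cKO replicate 2. Over all transcripts these 4 settings gave, in this order, 221, 153, 117 and 302 lower calls. The cause was not tested. The count of genes called higher was 0 under every alternative. The deviations of same-numbered libraries correlated at -0.07, 0.20 and 0.21, and those of different-numbered libraries between -0.36 and 0.28. With 3 libraries per group these values cannot decide whether the replicate numbers pair the oocytes. The replicate block also drops Setd1b cKO replicate 4, which has no partner. With the replicate block the count was 2, and over all transcripts it was 907 higher and 476 lower, against 857 and 435 without Setd1b cKO replicate 4 and no block. With all 7 libraries it was 683 and 355, without the filter 174 and 129, and without Setd1b WT replicate 2 it was 172 and 117. Centring on the median gene moved the median log2 difference of all transcripts from 0.12 to -0.03 and the share of higher calls from 65.8% to 46.3%; the median of the 9 genes was then -1.05. That share was 49.2% with quantile normalisation and 72.9% with scaling to the reads within transcripts. The summed level in Setd1b cKO was 63.4% of Setd1b WT as reported, 66.9% with scaling to the reads within transcripts, and 53.6% to 70.8% with 1 library left out. At this number of oocytes the 95% intervals of Nlrp4c and Nlrp14 held both 0 and a 2-fold fall.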
